A study of Rattus with 6 samples.

Results

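Pttg1 encodes securin, the protein that holds separase inactive until the chromosomes are ready to part. It was followed here in RNA of RC-4B/C cells, a line from a rat pituitary adenoma, as the 1 gene carried under that symbol in a table of 12801 genes and as its 5 exon rows among 118147. The rule was the gene name in the table, and all 5 rows that carry it were used. Polyadenylated RNA had been sequenced from 3 libraries labelled ASA, cells treated with aspirin (acetylsalicylic acid, an inhibitor of the cyclooxygenases), and from 3 control libraries labelled DMSO, the solvent dimethyl sulfoxide. The labels used here give no dose, no duration and no genetic change in either group, and nothing in them tells whether each library is a culture of its own. All 6 libraries come from this 1 line, and the other line that the series design names, GH3, was not analysed here. Every p-value therefore measures the spread between these libraries, which may be technical.

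Securin binds separase, the protease that cuts the cohesin ring around sister chromatids. When the spindle checkpoint is satisfied, the anaphase-promoting complex with its activator Cdc20 marks securin for destruction, separase is freed and the sisters come apart. Human and mouse securin is made chiefly as cells approach mitosis, and the gene was first isolated from rat pituitary tumour cells as the pituitary tumour-transforming gene. It is abundant in many human pituitary adenomas, and in the rat pituitary it is known to respond to oestrogen.

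The libraries held between 66492445 and 94486062 reads in listed exons, and the endocrine identity of the cells was checked on marker genes. Of 13 markers of pituitary endocrine cells 9 had values here, among them Prl (prolactin) and Pou1f1, the transcription factor of the prolactin, growth hormone and thyrotropin lineages. The hormone genes Gh1, Tshb, Lhb and Fshb had no values. The summed level of the 9 was 21539 to 65087 RPKM (reads per kilobase of coding exon per 1000000 reads) in ASA libraries and 27781 to 67657 RPKM in DMSO libraries. The hormone precursor gene Pomc was low, with a mean of 1.26 RPKM in ASA and 1.95 RPKM in DMSO libraries. Prl made up most of the sum, with 14037 to 62101 RPKM in ASA and 22006 to 62170 RPKM in DMSO libraries, so the overlap of the sums is mainly that of Prl. By the limma test described below 1 of the 9 passed, Cga, which encodes the common alpha subunit of the glycoprotein hormones. It fell to 2.86 ± 1.54 RPKM in ASA, against 25.8 ± 2.33 RPKM in DMSO libraries (SD, n = 3 each, adjusted p = 0.0137). Of 10 macrophage markers 3 had values, with sums of 52.3 to 217 RPKM in ASA and 23.4 to 39 RPKM in DMSO libraries, and the 3 differed among themselves. Cd68 rose to 103 ± 95.1 RPKM in ASA, against 2.48 ± 0.55 RPKM in DMSO libraries (adjusted p = 0.0126). Cd14 had 10.9 ± 8.05 RPKM in ASA and 24.2 ± 8.99 RPKM in DMSO libraries (adjusted p = 0.165), and Fcer1g 3.66 ± 0.562 and 2.46 ± 0.774 RPKM in ASA and DMSO libraries (adjusted p = 0.282). Of 7 fibroblast markers 3 had values, with sums of 3618 to 6533 RPKM in ASA and 3064 to 3830 RPKM in DMSO libraries. Among them Dcn, the gene of the matrix proteoglycan decorin, rose to 2736 ± 563 RPKM in ASA, against 1082 ± 22.6 RPKM in DMSO libraries (adjusted p = 0.0213), while Lum and Thy1 had adjusted p of 0.734 and 0.95. Of 6 endothelial markers only Vwf had a value, 0.865 RPKM at most. ASA replicate 2 was unlike the rest. Exons of a gene scattered in it by a median SD of 0.638 on the log2 scale around the DMSO profile, over 4242 well-covered genes, against 0.0796 to 0.145 in the other 5 libraries. The part of the marker sums and of that library in the Pttg1 difference was not tested beyond the values given below with the library left out.

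Pttg1 RNA was lower in every ASA library than in any DMSO library. Its level was 20.5, 28.7 and 19.5 RPKM in ASA replicates 1, 2 and 3, against 161, 63.3 and 156 RPKM in DMSO replicates 1, 2 and 3. The groups did not overlap, and the lowest DMSO library lay 2.21-fold above the highest ASA library. Such separation with ASA lower was common, found in 18.8% of the 12502 genes with a mean of at least 0.5 RPKM. DMSO replicate 2 stood between the other DMSO libraries and the ASA libraries. The ASA libraries spread by 1.47-fold from lowest to highest and the DMSO libraries by 2.55-fold. These levels rest on 1127, 1138 and 1017 Pttg1 reads in the ASA libraries and on 9101, 3107 and 8575 reads in the DMSO libraries. The counting error alone is at most 3.14% of any of these values, so the spread between libraries is far larger than the sampling of reads. In bulk RNA of this kind, fewer cells that make a transcript and less of it per cell cannot be told apart.

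**Figure D1:**
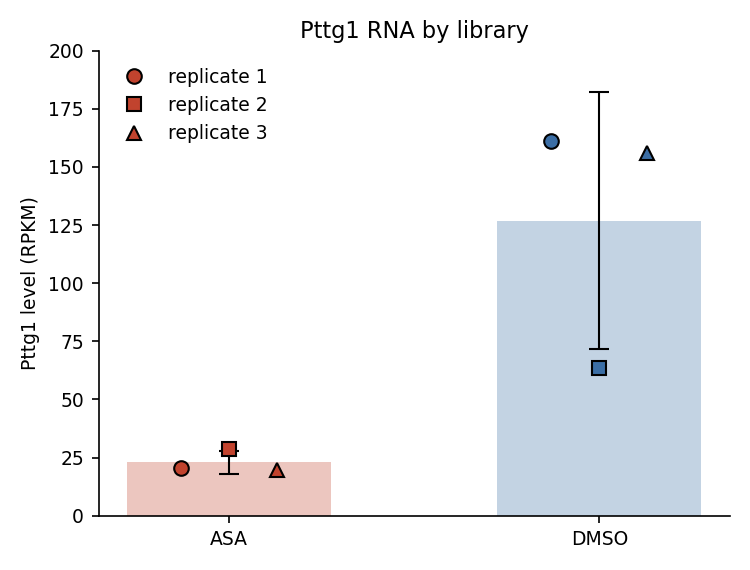
Pttg1 level in RPKM (linear axis from 0) in the 3 ASA and 3 DMSO libraries. Bars are group means, error bars are 1 SD (n = 3 each), and symbols mark single libraries. The ASA libraries lie between 19.5 and 28.7 RPKM, all below the lowest DMSO library at 63.3 RPKM.

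The place of Pttg1 among all genes of a library differed as well. It ranked 6695, 4823 and 6861 from the top of 12801 genes in ASA replicates 1, 2 and 3, and 978, 2717 and 1011 in DMSO replicates 1, 2 and 3. In DMSO replicates 1 and 3 it stood 7.45-fold and 7.56-fold above the median gene of the same library, and in DMSO replicate 2 it stood 3.17-fold above. In the ASA libraries it lay at 0.919, 1.67 and 0.869 times that median. Relative to the genes around it, Pttg1 was thus among the more abundant transcripts of control cells and close to the middle of the range in aspirin-treated cells.

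Across all genes the ASA and DMSO libraries were compared with limma on log2(RPKM + 0.1), with Benjamini-Hochberg adjustment over the 12502 genes whose mean was at least 0.5 RPKM and a threshold of 0.05. Pttg1 averaged 22.9 ± 5.03 RPKM in ASA and 127 ± 55.2 RPKM in DMSO libraries (SD, n = 3 each). Its log2 fold change was -2.37 ± 0.38 (SE), with a 95% interval from -3.24 to -1.49, which is 2.82-fold to 9.47-fold lower (adjusted p = 0.0173). Of all tested genes 4.99% were lower in ASA by this test, and Pttg1 had the 203rd smallest p and the 126th lowest log2 fold change. An exact two-sided permutation test of its log2 values gave p = 0.1, the smallest that 20 splits of 3 against 3 can give. Any gene whose groups do not overlap gets this value, so it adds nothing to the separation given above. The call was lost without ASA replicate 3 (log2 fold change -2.26, adjusted p = 0.0979), without DMSO replicate 1 (-2.14, adjusted p = 0.0696) and without DMSO replicate 3 (-2.16, adjusted p = 0.0974). Without ASA replicate 2 the change was -2.54 (adjusted p = 0.0131), and without DMSO replicate 2 it was -2.81 (adjusted p = 0.0162).

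The table gives Pttg1 as 5 exons on the minus strand of chromosome 10, from 29020106 to 29025479 in Rnor_6.0 coordinates (ENSRNOG00000003802). Their lengths sum to 597 bases, the length of 199 codons, so the rows were taken as coding sequence with no untranslated part. The sequence itself was not read. Numbered from the start of the transcript, coding exon 1 spans 29025392 to 29025479 (88 bases), exon 2 spans 29024387 to 29024565 (179 bases) and exon 3 spans 29022102 to 29022195 (94 bases). Exon 4 spans 29020872 to 29021030 (159 bases) and exon 5 spans 29020106 to 29020182 (77 bases). All 30 exon values, 5 exons in 6 libraries, came out as whole reads within 0.02 read, so the table shows no read of Pttg1 split with another feature.

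Each coding exon was lower in every ASA library than in any DMSO library. The 5 exons belong to 1 gene read in the same 6 libraries, so they are not separate evidence. The share of all exon rows that separated the groups was not counted. At gene level 18.8% of all genes with a mean of at least 0.5 RPKM did so with ASA lower. Exon 1 had 18.3, 18.1 and 18.5 RPKM in ASA replicates 1, 2 and 3, against 140, 54.8 and 118 RPKM in DMSO replicates 1, 2 and 3. Exon 2 had 21.3, 19.4 and 20.5 RPKM in the ASA libraries, against 162, 67.5 and 158 RPKM in the DMSO libraries. Over these first exons the 3 ASA libraries were nearly alike, and DMSO replicate 2 was well below the other controls. Exon 3, the highest exon in all 6 libraries, had 25.8, 48.3 and 26.5 RPKM with ASA, against 218, 82.7 and 222 RPKM with DMSO. Exon 4 had 20.9, 36.8 and 17.9 RPKM with ASA, against 158, 61.6 and 158 RPKM with DMSO. Exon 5 had 14, 21.5 and 13.1 RPKM with ASA, against 121, 43.3 and 112 RPKM with DMSO. From exon 3 on, ASA replicate 2 stood above the other ASA libraries without reaching any DMSO library.

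**Figure D2:**
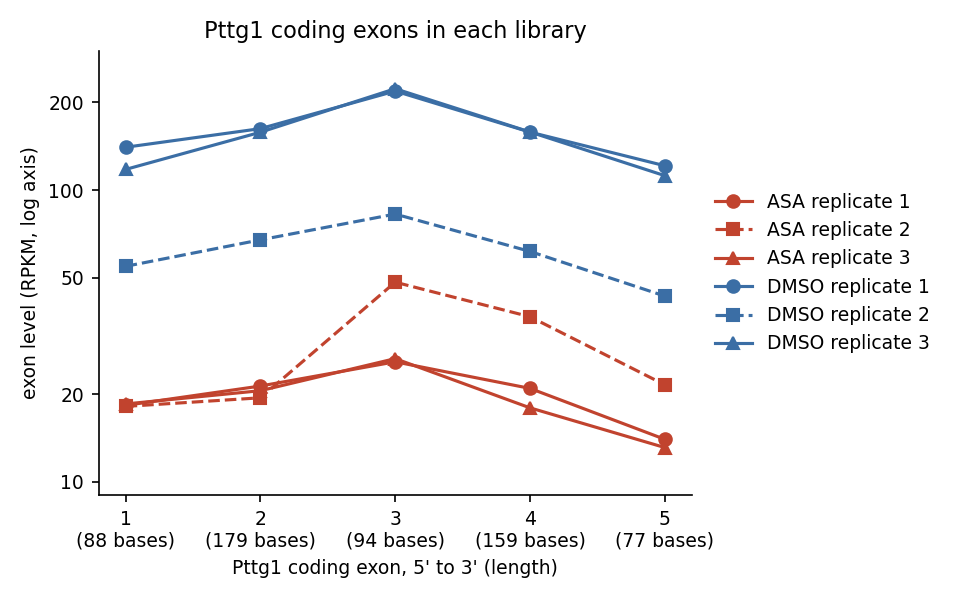
Level of each Pttg1 coding exon (RPKM, log axis) from the start to the end of the transcript, 1 line per library. The shape is shared by 5 libraries, with exon 3 highest and exon 5 lowest, and ASA replicate 2 departs from it between exons 2 and 3.

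The higher Pttg1 level of ASA replicate 2 came from exons 3 to 5. Exon 3 stood 2.49-fold above exon 2 in that library, against 1.21-fold and 1.29-fold in ASA replicates 1 and 3 and 1.23-fold to 1.41-fold in the DMSO libraries. Its lowest exon was exon 1, where in the other 5 libraries it was exon 5. Such unevenness was general in ASA replicate 2. The scatter of the Pttg1 exons there was 0.431 (log2 SD), which was larger than in only 19% of the 4242 well-covered genes of that library. With exons 1 and 2 alone the Pttg1 log2 fold change was -2.51 (adjusted p = 0.0134), and with exons 3 to 5 alone it was -2.30 (adjusted p = 0.0229), both in limma over all genes and both chosen after the data were seen.

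Tested exon by exon in limma over all 118147 exon rows, all 5 coding exons were lower in ASA, against a background of 0.791% of exons lower. Exon 2 had the largest change, -2.56 ± 0.36 on the log2 scale (SE, adjusted p = 0.036), and exon 4 the smallest, -2.27 ± 0.44 (adjusted p = 0.049). The adjusted p-values lie close to the threshold. The number of Pttg1 exons past it was 5 without ASA replicate 2, where 6.38% of all exons were lower. It was 4 without DMSO replicate 2 (0.307% of all exons) and 2 without ASA replicate 1 (1.02%). In the fits lacking ASA replicate 3, DMSO replicate 1 or DMSO replicate 3 it was 0, as was the number over all exons. With a variance model that has no mean trend it was 1, where 0.232% of all exons were lower. Exon use was asked separately, as the log2 fold change of 1 exon minus the mean of the others, with limma's diffSplice. The 5 differences ran from -0.21 for exon 2 to 0.15 for exon 4, no Pttg1 exon passed (unadjusted p of at least 0.6997), and the gene-level F test gave an adjusted p of 1. In this test 0.0447% of exons passed over all genes. No change in the relative use of coding exons was therefore detectable in these libraries, a statement that does not extend to untranslated exons or other start sites.

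Securin acts on separase and separase on the cohesin ring, and part of the list of genes around them was lower with ASA. Espl1, which encodes separase, had 5.02, 2.32 and 3.81 RPKM in the ASA libraries, against 34.3, 8.13 and 27.1 RPKM in the DMSO libraries, 5.42-fold lower (limma adjusted p = 0.0372). The groups did not overlap, as was true with ASA lower of 18.8% of all tested genes. As with Pttg1, the second DMSO library was the lowest control. Of 19 tested genes of separase and cohesin 4 fell and none rose, where 4.99% of all tested genes were lower, and the median log2 fold change was -0.87 against -0.06 over all genes tested. Beside Espl1 these were Esco2, the acetyltransferase that locks cohesin during replication (6.35-fold lower), Cdca5, encoding sororin, which keeps the ring closed (4.10-fold), and Sgo1, encoding shugoshin, which guards centromeric cohesin (4.11-fold). None of these 4 genes encodes a subunit of the ring itself. The ring subunit Rad21, the chain that separase cuts, averaged 144 ± 62.4 RPKM in ASA and 287 ± 62.3 RPKM in DMSO libraries (SD, n = 3 each) and missed the threshold (adjusted p = 0.0963). The number of this list that fell was 1 without ASA replicate 1, 4 without ASA replicate 2 and 6 without DMSO replicate 2, fits in which 8.27%, 8.07% and 2.55% of all tested genes were lower.

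In the ubiquitin ligase that destroys securin a minority of genes fell, among them its mitotic activator. Cdc20 had 20.6, 22.5 and 17 RPKM in ASA replicates 1, 2 and 3, against 168, 49.8 and 125 RPKM in DMSO replicates 1, 2 and 3 (5.07-fold lower, limma adjusted p = 0.0211). Fzr1, the activator that keeps the complex working after mitosis and in G1, averaged 43.4 ± 4.49 RPKM in ASA and 59 ± 15.5 RPKM in DMSO libraries (SD, n = 3 each), with overlapping groups and an adjusted p of 0.286. Of 19 tested genes of the complex with its partner enzymes 4 fell and none rose, against 4.99% of all tested genes lower, with a median of -0.56. The other 3 were Ube2s, the ubiquitin-conjugating enzyme that lengthens the chains (2.07-fold lower), Cdc27, a core subunit (1.62-fold), and Fbxo5, which encodes the inhibitor Emi1 (3.92-fold). With the variance model without a trend 2 of the 19 passed, against 3.78% of all tested genes.

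The spindle checkpoint, which holds the complex back from securin, was lower in 7 of 16 tested genes, and none rose, where 4.99% of all tested genes were lower. The log2 fold change was below 0 in all 16, and its median was -1.70. Bub1b, which encodes the checkpoint protein BubR1, had 6.09, 7.09 and 6.50 RPKM with ASA, against 52, 18.6 and 39.7 RPKM with DMSO (5.09-fold lower, limma adjusted p = 0.0179). Kntc1, a subunit of the complex that brings checkpoint proteins to kinetochores, was 4.80-fold lower. Ndc80 and Nuf2, the pair that binds microtubules at the kinetochore, were 4.79-fold and 5.50-fold lower. Without DMSO replicate 2 the number was 11, against 2.55% of all tested genes.

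Of 17 tested genes of other proteins that the same ligase destroys in and after mitosis, 12 were lower in RNA and none rose. Of all tested genes 4.99% were lower, and the median log2 fold change of the list was -2.24. The mitotic cyclin genes Ccnb1 and Ccna2 were 7.30-fold and 7.03-fold lower, Cdca3, a trigger of mitotic entry, 6.63-fold, and the kinase gene Plk1 6.32-fold. Ccnb1 had 15.3, 7.69 and 11.2 RPKM with ASA, against 137, 36.3 and 105 RPKM with DMSO. Of the 71 tested genes in these 4 lists 27 passed as lower, against 4.99% of all tested genes, and none as higher, and 11 had a log2 fold change below that of Pttg1. Groups did not overlap, with ASA lower, in 47 of the 71, against 18.8% of all tested genes. None of the 71 passed once ASA replicate 3, DMSO replicate 1 or DMSO replicate 3 was set aside. Of all tested genes 42 passed as lower in the fit lacking DMSO replicate 1. In those lacking ASA replicate 3 or DMSO replicate 3 no gene of any kind passed in limma, with 2926 and 2345 genes at an unadjusted p under 0.05.

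**Figure D3:**
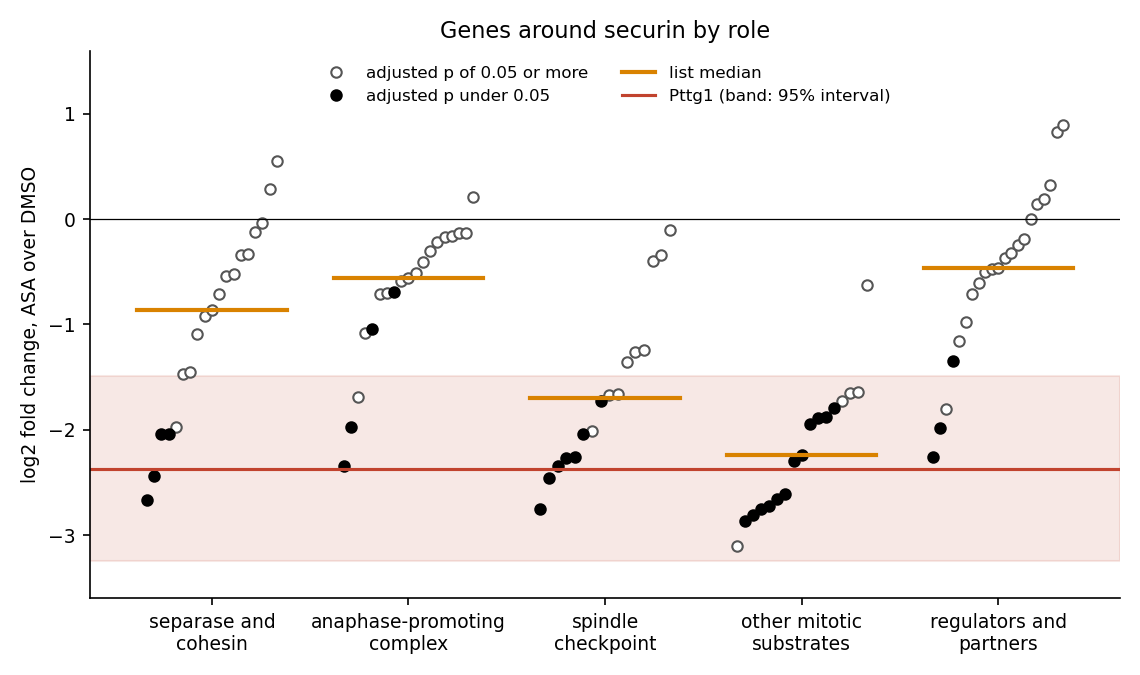
Log2 fold change, ASA over DMSO, of each tested gene in 5 lists around securin. Filled points have an adjusted p under 0.05, orange bars are list medians, and the red line and band are Pttg1 and its 95% interval. No gene of the anaphase-promoting complex list lies below Pttg1, and 7 of the 17 other mitotic substrates do.

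Ratios within a library show how Pttg1 stood to its partners whatever the depth. The level of Pttg1 over that of Cdc20, both per length, was 0.994, 1.27 and 1.15 in ASA replicates 1, 2 and 3, and 0.961, 1.27 and 1.25 in DMSO replicates 1, 2 and 3. These ratios overlap between the groups and stay within a narrow range in all 6 libraries. Over separase, Pttg1 stood at 4.08, 12.4 and 5.12 with ASA and 4.70, 7.79 and 5.77 with DMSO, so the groups overlapped and ASA replicate 2 was the highest. Over the proliferation marker Mki67 the ratio ran from 2.59 to 11.1 with ASA and from 2.90 to 3.87 with DMSO. ASA replicate 2 was again the highest. Mki67 itself averaged 5.67 ± 2.77 RPKM in ASA and 38.9 ± 20.3 RPKM in DMSO libraries (SD, n = 3 each). It was 6.62-fold lower (limma adjusted p = 0.0301), where Pttg1 was 5.16-fold lower. Mki67 lost its call in the same 3 fits as Pttg1 (adjusted p = 0.108 to 0.139). A fall of this kind was thus also seen outside the lists around securin. Over Fzr1 the ratio was 0.422 to 0.703 with ASA and 1.51 to 2.51 with DMSO, with no overlap. Fzr1 itself missed the threshold (limma log2 fold change -0.41, adjusted p = 0.286), so this separation mainly restates that of Pttg1. For how many genes such a ratio separates the groups was not counted.

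Of 21 tested regulators and partners of securin 3 fell and none rose, where 4.99% of all tested genes were lower, and the median log2 fold change was -0.47. The 3 were Foxm1, Cdk1 and Esr1, and none of them passed once ASA replicate 3, DMSO replicate 1 or DMSO replicate 3 was set aside (adjusted p = 0.0696 to 0.16). Foxm1, a transcription factor of genes expressed before mitosis, had 5.35, 2.92 and 2.90 RPKM with ASA, against 31.7, 8.14 and 20.4 RPKM with DMSO (4.77-fold lower, limma adjusted p = 0.0366). Cdk1, the mitotic kinase, which phosphorylates human securin, was 3.97-fold lower. Esr1, the oestrogen receptor alpha, had 45.4, 47 and 33.3 RPKM with ASA, against 93.7, 133 and 95 RPKM with DMSO (2.55-fold lower, adjusted p = 0.0189). In Esr1, unlike Pttg1, DMSO replicate 2 was the highest control. Mybl2, a partner of Foxm1 at promoters of mitotic genes, averaged 7.56 ± 3.06 RPKM in ASA and 29.5 ± 17.2 RPKM in DMSO libraries (SD, n = 3 each, adjusted p = 0.0699). Pttg1ip, the gene of a protein that binds human securin, had 316, 319 and 267 RPKM with ASA, against 283, 279 and 250 RPKM with DMSO. These overlap, with a log2 fold change of 0.15 ± 0.17 (SE, adjusted p = 0.579).

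Of 6 tested genes reported in human or mouse cells to respond to securin, 1 rose and none fell, where 6.21% of all tested genes were higher in ASA. It was Cdkn1a, the gene of the kinase inhibitor p21. It had 113, 202 and 230 RPKM with ASA, against 90.4, 56.1 and 71.2 RPKM with DMSO, 2.44-fold higher (limma adjusted p = 0.0402). It did not pass once ASA replicate 3 or any 1 DMSO library was set aside, and its adjusted p ran from 0.0162 to 0.161 across the 6 such fits. It also missed the threshold without a variance trend and with both libraries numbered 2 left out. Id3 was 3.72-fold higher by the log2 means with an adjusted p of 0.061, and the adjusted p was 0.257 for Myc (log2 fold change 0.34) and 0.278 for Ccnd3 (-0.36). Of 12 tested genes tied to pituitary tumours in humans or mice none passed in limma, 7 had an unadjusted p under 0.05, as did 3753 of all 12502 tested genes, and the median was -0.40. The smallest p-values among them were those of the somatostatin receptor gene Sstr2 (0.91 ± 0.549 RPKM in ASA and 3.5 ± 0.898 RPKM in DMSO libraries, SD, n = 3 each, adjusted p = 0.0503), the chromatin protein gene Hmga1 (log2 fold change 1.11, adjusted p = 0.0507), Gnas, which encodes a stimulatory G protein subunit (-1.13, adjusted p = 0.0523), and the dopamine receptor gene Drd2 (-1.15, adjusted p = 0.0587). By voom on the recovered reads 2 of these 12 passed as lower, against 4.97% of all tested genes, and without ASA replicate 2 it was 4, against 8.07%.

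Genes of the table that lie next to Pttg1 on chromosome 10 were read beside it. Slu7, a splicing factor gene on the opposite strand whose first listed exon lies 8.51 kb away, had 46.2, 25.6 and 63.5 RPKM with ASA, against 56, 51.9 and 58.9 RPKM with DMSO (log2 fold change -0.40 ± 0.32 SE, adjusted p = 0.434). Next on that side come C1qtnf2, with a log2 fold change of -0.995 ± 0.644 (SE, adjusted p = 0.335), and Pwwp2a, with 0.01 ± 0.28 (SE, adjusted p = 0.983). None of these 3 genes passed. On the other side the nearest is Gabrb2, 833 kb away, which also missed the threshold (adjusted p = 0.908).

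The genes whose levels ran closest to Pttg1 were looked for among 11050 named genes with a mean of at least 1 RPKM. Likeness was the root mean square distance over the 6 libraries of log2(RPKM + 0.1) minus the DMSO mean. The closest was Cenpi, a kinetochore protein gene, at a distance of 0.113. It had 3.06, 3.69 and 2.80 RPKM with ASA, against 20.6, 9.53 and 20.5 RPKM with DMSO. Next came Pmch, the precursor of melanin-concentrating hormone, at 0.15, Bub1b at 0.16 and Cdc20 at 0.168. Depdc1, the centromeric histone gene Cenpa, the mitotic kinesin gene Kif20a and the ubiquitin-conjugating enzyme gene Ube2t followed at 0.251 to 0.254. The median distance over all candidates was 1.74. Since the difference between the groups weighs most in this distance, it mainly collects genes that are about as much lower in ASA as Pttg1.

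**Figure D4:**
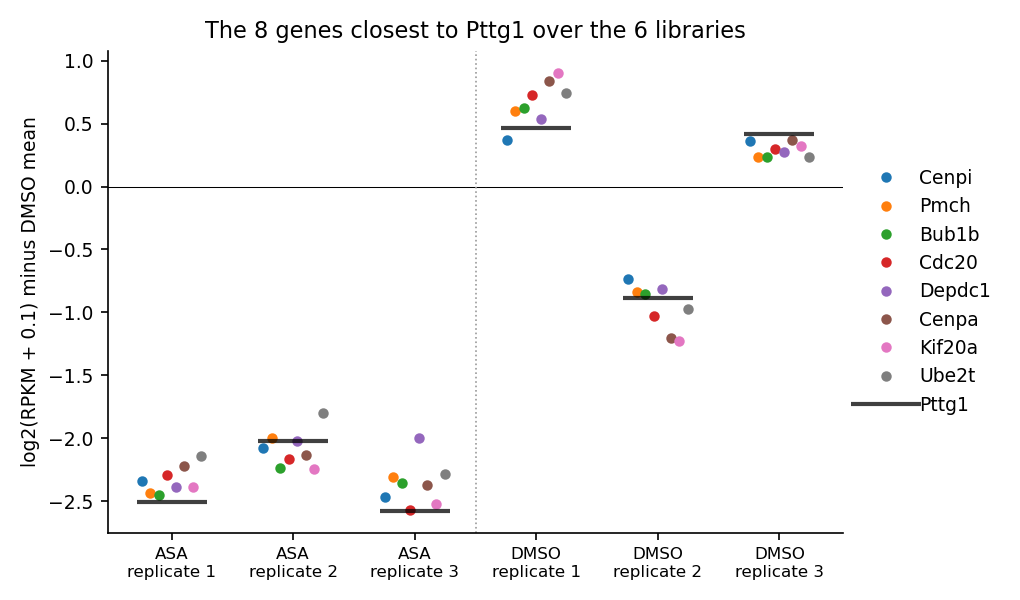
Log2(RPKM + 0.1) minus the DMSO mean in each library for Pttg1 (black bars) and for the 8 genes at the smallest distance from it (coloured points). All 9 genes are lowest in the ASA libraries and lie between the groups in DMSO replicate 2.

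A different set came up when only the variation within the groups was used. After each group's mean was subtracted, Cenpi and the kinase gene Melk had Pearson correlations with Pttg1 of 0.995 and 0.992 over the 6 libraries. The other 6 of the 8 highest were Mrpl21, Mrpl45, Atp8b5p, Aqr, Camkmt and Gdpd5, at 0.988 to 0.997. Of these, Mrpl21 and Mrpl45, genes of the mitochondrial ribosome, Atp8b5p, Aqr and Camkmt missed the threshold (limma adjusted p = 0.188 to 0.875, log2 fold changes from -0.33 to 0.75). Gdpd5 was higher in ASA (log2 fold change 2.14, 18.4 ± 1.43 RPKM in ASA and 4.13 ± 0.579 RPKM in DMSO libraries, SD, n = 3 each, adjusted p = 0.0119). With 2 group means removed from 6 values, such correlations have few points behind them, and 73 candidates exceeded 0.95. Within each group the library numbered 2 was the one where Pttg1 lay farthest from the group's mean.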

How the data were processed

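The deposited table holds log2 RPKM values made by the authors, with exons as rows and libraries as columns, and each exon's coordinates and length. Per the submitters' processing notes, Trim Galore 0.4.1, cutadapt 1.14, TopHat2 2.1.0, Bowtie2, edgeR 3.26.8 and the build Rnor_6.0 were used, without role or order. For the counting tool and its use of strand, nothing is stated in the sources used here. Of 7525 genes with every numbered exon listed, 95.3% had a length divisible by 3, so lengths were taken as coding lengths. A constant of 0.00292 reads per 1000000 (0.25 read at a mean depth of 85761055) was removed, which left 95.7% to 96.8% of values as whole reads within 0.02 read. In every row at least 4 libraries had over 10 reads. Gene RPKM is the sum of a gene's reads per coding kilobase per 1000000. Tests used limma 3.58.1 in R 4.3.3 (lmFit, eBayes with trend, two-sided, no covariates) on log2(RPKM + 0.1) for genes and on the deposited log2 values for exons, and diffSplice for exon use. The added 0.1 understates changes of low genes. The fits were also run on simulated data with independent noise of equal size in all 6 libraries. Those data held no outlying library such as ASA replicate 2, so they cannot speak to the calls lost here. Replicate numbers follow the deposited order and pair nothing.

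The gene, the lists and the tests were chosen with earlier results of these data known. Genes were named by a rule: Pttg1, Espl1, Cdc20, Fzr1, Rad21, Pttg1ip, Foxm1 and Mki67, up to 4 of each list by smallest p, 3 neighbours on each side, and the 8 most alike by each measure. Results for some genes that the rule picks are not reported here. From the marker lists Prl, Pou1f1 and Vwf were named, and Cga, Pomc, Cd68, Cd14, Fcer1g, Dcn, Lum and Thy1 after their values were seen. Gh1, Tshb, Lhb and Fshb were named because they had no values.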

Additional observations from a re-analysis of the deposited data

How the results depend on the processing

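Pttg1 stayed lower in ASA under all 20 alternatives, with log2 fold changes from -2.98 to -2.14, and it passed in 17 of them. The 3 exceptions, in which either ASA replicate 3 or 1 of DMSO replicates 1 and 3 was missing, had adjusted p of 0.0696 to 0.0979. Among the 20 are the fits of exons 1 and 2 alone and of exons 3 to 5 alone, which were chosen after the data were seen. The alternatives reuse the same libraries, so they are not separate evidence. Over all 6 fits that lacked 1 library the change ran from -2.81 to -2.14 and the adjusted p from 0.0131 to 0.0979. The cause was not tested. No paired analysis was possible because the labels give no replicate numbers. Exon use could not be refitted without a trend, since that test has none. It called 0 Pttg1 exons in every fit run.

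With single libraries left out in turn, the numbers called lower ran from 0 to 5 for Pttg1 exons, 0 to 6 for separase and cohesin, 0 to 4 for the anaphase-promoting complex, 0 to 11 for the spindle checkpoint, 0 to 15 for the other mitotic substrates, 0 to 4 for regulators and partners, and 0 to 4 for pituitary tumour genes. For the genes reported to respond to securin it was 0 in each. Of all tested genes 0 to 8.27% were lower in the same fits, and of all exons 0 to 6.38%. No tested gene was lower without ASA replicate 3 or DMSO replicate 3, and 0.336% were without DMSO replicate 1. Without a variance trend the numbers called lower were 1 for Pttg1 exons, 2 for the anaphase-promoting complex and 1 for tumour genes. In that setting 3.78% of all tested genes and 0.232% of all exons were lower. With voom, 2 of the separase and cohesin list and 2 tumour genes passed, against 4.97% of all tested genes. With library quality weights (gene-by-gene method), which gave DMSO replicate 3 a weight of 8.71 and ASA replicate 2 one of 0.105, the numbers were 13 for separase and cohesin, 12 for the anaphase-promoting complex, 15 for the spindle checkpoint, 9 for regulators and 7 for tumour genes, while 20.6% of all tested genes were lower, against 4.99% in the reported fit. With both libraries numbered 2 left out they were 11, 9, 14, 5 and 6, with 11.4% of all tested genes lower, so in both settings the lists' counts rose along with the background. Tumour genes lower numbered 1 with a pseudocount of 0.01 or 1, with no filter or with a mean of at least 1 RPKM, and 2 with median-of-ratios scaling or quantile normalization. Of all tested genes 4.85%, 5.37%, 4.92%, 5.15%, 6.14% and 6.81% were lower in these fits, in that order.

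Of 30 other genes past the threshold that the naming rule picks, the fits lacking ASA replicate 3 or DMSO replicate 3 lost all 30 and the one lacking DMSO replicate 1 lost 29, and none of the 30 changed sign under any alternative. Some genes that missed the threshold did change sign. With single libraries left out their log2 fold changes ran from -0.53 to 0.28 for Gabrb2, from -0.17 to 0.24 for Pwwp2a, from -0.14 to 0.21 for Camkmt and from -0.24 to 0.044 for Mrpl21. With both libraries numbered 2 left out Gabrb2 had 0.088 and Camkmt -0.24, and with quality weights Camkmt had -0.17. Depth limits little for Pttg1, with at least 1017 reads in every library.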
